A study of Mus musculus with 6 samples.

Results

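Cytochrome P450 genes of families 1, 2 and 3 were examined in mouse liver tumors with and without the mitochondrial topoisomerase gene Top1mt. The members are the genes of the expression table whose symbol is Cyp, a digit from 1 to 3, a single letter for the subfamily and a number, without pseudogenes. There were 58 such genes among the 30236 genes listed. P450 enzymes are heme proteins of the endoplasmic reticulum that insert oxygen into drugs, toxins, steroids and fatty acids, with electrons from the reductase encoded by Por. In the liver these families are made mainly by hepatocytes, and many members are most abundant around the central vein. Several are induced through the receptors AHR, CAR and PXR, and others differ between male and female mice. Cyp2e1 has a place of its own here, because its enzyme activates both diethylnitrosamine, the carcinogen used to start these tumors, and carbon tetrachloride, the toxin used to promote them.

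RNA-seq was performed on liver tumor tissue from C57BL/6 mice, 3 samples from WT mice and 3 from Top1mt-KO mice, and the question was how tumors that form without Top1mt differ in their RNA. All mice, which the study describes as male littermates, WT or homozygous for the Top1mt deletion, received diethylnitrosamine on day 14 after birth. From week 8 they were injected with carbon tetrachloride for 14 weeks, and tumors were collected at week 22. Values are the authors' log2 expression values, so every level and difference below is on the log2 scale unless said otherwise. Read depth and the transform behind these values are unknown, so the precision of weakly expressed genes is unknown as well. The labels name no animal for each tumor, so p-values measure the spread between these samples.

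The knocked-out gene was read in each library before anything else. Top1mt had a value of 7.71 in WT replicate 1, 5.99 in WT replicate 2 and 8.01 in WT replicate 3, against 5.58, 6.41 and 6.32 in KO replicates 1, 2 and 3. The library labelled WT replicate 2 therefore goes against its label, below 2 of the 3 libraries labelled KO, and every direction below rests on the labels as given. A second library, KO replicate 1, stood apart because a single transcript, Gm42418, made up 17.7% of its summed linear values, compared with 0.0199% to 0.387% in the other libraries. Values without single libraries are given beside many of the results below. Hepatocyte markers were abundant in all tumors. Alb, for albumin, lay between 20.26 and 21.12, and the 9 hepatocyte markers together summed to 21.32, 21.77 and 21.09 in WT tumors and to 21.88, 21.30 and 21.60 in KO tumors.

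Of the 58 P450 genes, 52 passed the filter on low values, a mean over all libraries above the lowest 25% of genes. The other 6, Cyp2b23, Cyp2c66, Cyp2j7, Cyp2j11, Cyp2j12 and Cyp2w1, had values between -1.92 and -0.23 in every library, near the bottom of the table, and were not tested. At the other end, 21 members had a mean of 10 or more. Scaled to transcript length, the highest mean levels per kilobase were 13.82 for Cyp2a4, a steroid hydroxylase, 13.10 for Cyp3a11, the main drug-metabolizing enzyme of its subfamily, and 12.71 for Cyp2e1. The order differed between groups. On this scale Cyp2a4 was first of 57 members in WT, with a mean level of 14.66 ± 0.18 (SD, n = 3), and second in KO with 12.98 ± 1.01. Cyp3a11 was 4th in WT at 12.90 ± 0.59 and first in KO at 13.30 ± 1.09. By library, Cyp2a4 held rank 1 in all 3 WT tumors and in KO replicate 1, rank 2 in KO replicate 2 and rank 6 in KO replicate 3.

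Most P450 genes were lower in the KO group, but none passed the test. Among the 52 tested, 33 were lower and 19 higher in KO, so that 63.5% were lower, compared with 52.3% of all 22677 genes tested. Their median log2 difference was -0.22, and that of all genes was -0.02. With limma, 0 members had an adjusted p under 0.05 (0% of all genes did), and the smallest adjusted p of a member was 0.999. At an unadjusted limma p under 0.05, 5 members or 9.62% were lower, Cyp2a4, Cyp2b13, Cyp2c37, Cyp2d9 and Cyp2e1, compared with 2.56% of all genes, and 0 were higher, compared with 1.79%. For 4 members or 7.69%, Cyp2a4, Cyp2d9, Cyp2d11 and Cyp2u1, every KO value lay below every WT value, which 4.33% of all genes showed. For 0 members did every KO value lie above, compared with 3.95% of all genes. The spread among tumors of the same genotype was large in these genes, with a median within-group SD of 0.70 against 0.38 for all genes, and 67.3% of their differences were smaller than the gene's own within-group SD, compared with 74.1% over all genes. In bulk tumor RNA, fewer cells of a type and less RNA per cell cannot be told apart.

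The count at an unadjusted p moved with single libraries. It was 8 without KO replicate 1, where 5.97% of all genes reached that p, and of the 8 members 6 were then higher (Cyp2c67, Cyp2j5, Cyp2j9, Cyp3a11, Cyp3a16 and Cyp3a57) and 2 lower (Cyp2a4 and Cyp2b13). It was 6 without the library labelled WT replicate 2, 3 without WT replicate 1 and 3 without KO replicate 3, and the shares of all genes in those fits were 4.62%, 4.07% and 3.79%. The median log2 difference of the members was -0.14 without KO replicate 1, -0.26 without the library labelled WT replicate 2, -0.06 without WT replicate 1 and -0.10 without KO replicate 3. Cyp2a4 was among the members at an unadjusted p under 0.05 in each of these fits.

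**Figure D1:**
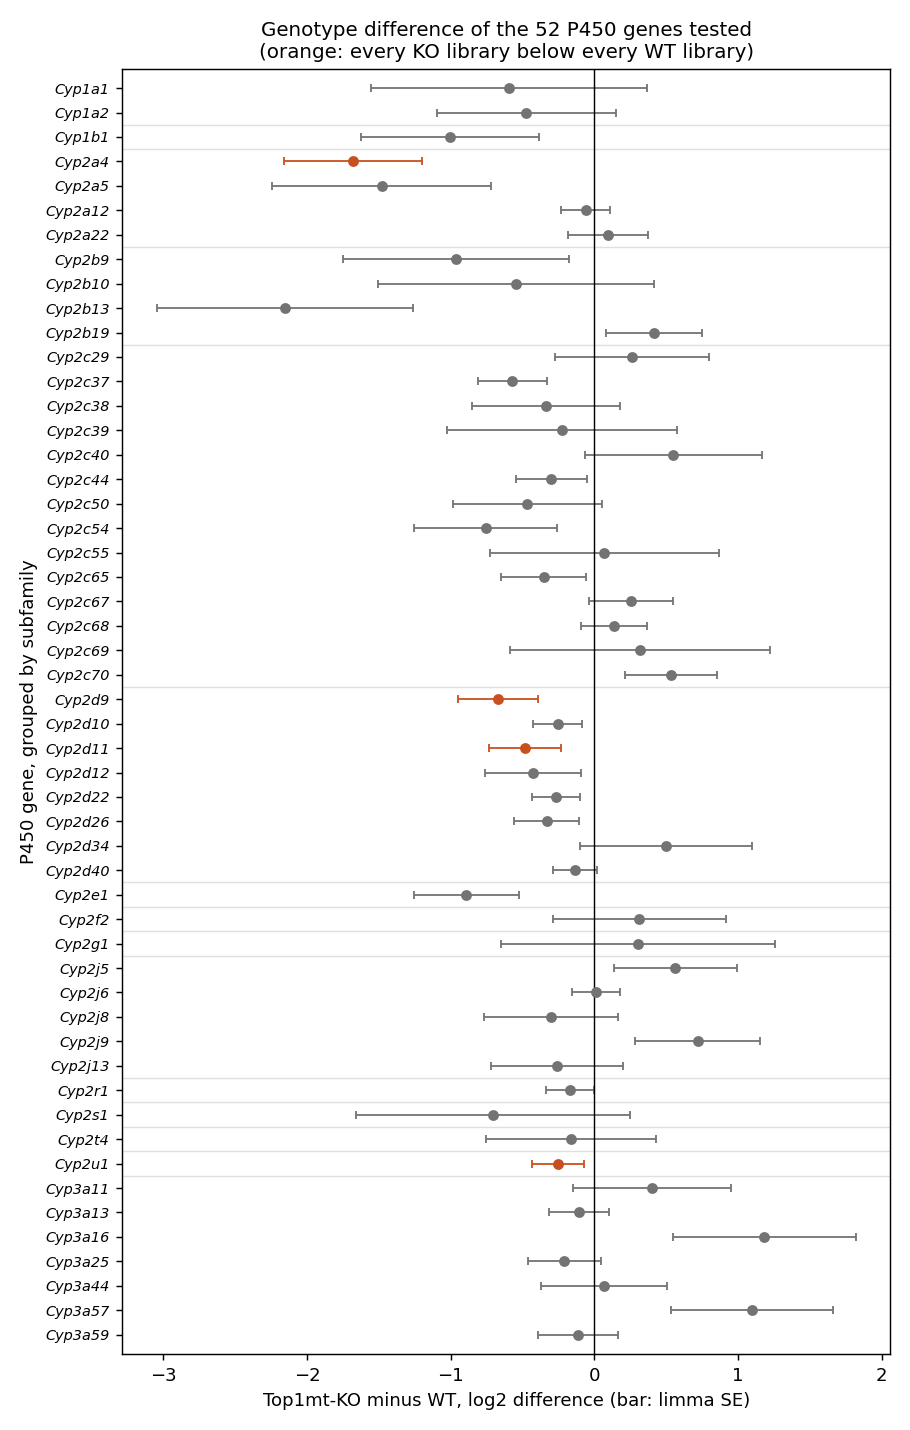
Log2 difference between Top1mt-KO and WT for the 52 P450 genes tested, on the x axis, grouped by subfamily on the y axis, with points for the difference and bars for limma's standard error (3 libraries per group). Differences run from -2.15 for Cyp2b13 to 1.18 for Cyp3a16, and the 4 orange genes are those whose KO values all lie below their WT values.

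Cyp2e1 was the member of most interest for this model. Its RNA was read in tumors collected at week 22, and its level when diethylnitrosamine was given on day 14 was not measured. Its values were 14.52, 13.70 and 13.86 in WT replicates 1 to 3 and 12.52, 13.06 and 13.82 in KO. KO replicate 1 and KO replicate 2 lay below all WT tumors, while KO replicate 3 lay between WT replicates 2 and 3, so the groups overlapped. The mean was 14.02 ± 0.43 (SD, n = 3) in WT and 13.13 ± 0.66 in KO, a difference of -0.89 with a standard error of 0.37 and an adjusted limma p of 0.999. An exact two-sided permutation test gave p = 0.2, where 3 against 3 cannot go below 0.1. Leaving out KO replicate 1 gave -0.58, and leaving out the library labelled WT replicate 2 gave -1.05. Cyp2e1 is a pericentral gene, and of the 7 pericentral P450 genes tested 6 were lower in KO and 1, Cyp2c29, was higher, with a median difference of -0.57. None passed the adjusted threshold, and 2 of the 7 (Cyp2e1 and Cyp2c37) were lower at an unadjusted limma p under 0.05, as were 2.56% of all genes. Without WT replicate 1 the split was 4 lower and 3 higher and the median -0.15, while all 7 were lower without the library labelled WT replicate 2, with a median of -1.05, and without KO replicate 2, with -0.78. Cyp1a2, Cyp2a5, Cyp2c50 and Cyp2c54 make up the rest of that list, with differences from -0.47 for Cyp2c50 to -1.48 for Cyp2a5.

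Cyp2a4 and its neighbor Cyp2a5 were the abundant members with the largest differences. Cyp2a4 hydroxylates testosterone and is known as a gene expressed more in female than in male liver. It had 15.35, 15.36 and 15.67 in WT and 14.37, 14.35 and 12.62 in KO. The WT tumors were close together, all KO tumors were lower, and KO replicate 3 was the lowest. The difference was -1.68 with a standard error of 0.48 and an adjusted limma p of 0.999, and the exact permutation test gave p = 0.1, the smallest that 3 against 3 allow. It ranged from -1.98 without KO replicate 1 to -1.10 without KO replicate 3. Cyp2a5, which oxidizes coumarin and nicotine, had 14.86, 12.83 and 14.72 in WT and 12.82, 13.97 and 11.18 in KO. KO replicate 3 was again the lowest, but the library labelled WT replicate 2 was as low as KO replicate 1, and the groups overlapped. Its difference was -1.48 with a standard error of 0.76 and became -2.14 without the library labelled WT replicate 2 and -0.74 without KO replicate 3. Per kilobase, Cyp2a4 exceeded Cyp2a5 by 2.75 in the library labelled WT replicate 2 and by 0.59 in KO replicate 2, so the pair did not keep a fixed ratio. Their transcripts were 98.2% identical over 1739 aligned bases. Of the short windows of fixed length along each transcript, 6.32% in Cyp2a4 and 8.58% in Cyp2a5 occurred in another gene. How reads were assigned between the 2 genes was not tested. The other 2 members of the subfamily, Cyp2a12 and Cyp2a22, differed little, by -0.06 and 0.09.

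The promoters of this pair are shown because the genes are near copies that were both lowest in KO replicate 3. The RefSeq sequences give the 250 bases before each gene's start on GRCm38, at chr7:26306942-26307191 for Cyp2a4 and chr7:26835089-26835338 for Cyp2a5, both on the plus strand and written in that direction. Capitals mark GTTAAT, letters within the binding site of the hepatocyte factor HNF1, and TATAAA, the TATA box.
Cyp2a4: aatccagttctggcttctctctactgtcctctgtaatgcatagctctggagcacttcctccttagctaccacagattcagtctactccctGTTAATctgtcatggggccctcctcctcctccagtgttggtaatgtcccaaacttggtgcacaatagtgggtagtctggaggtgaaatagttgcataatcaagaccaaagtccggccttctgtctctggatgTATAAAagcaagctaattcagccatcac
Cyp2a5: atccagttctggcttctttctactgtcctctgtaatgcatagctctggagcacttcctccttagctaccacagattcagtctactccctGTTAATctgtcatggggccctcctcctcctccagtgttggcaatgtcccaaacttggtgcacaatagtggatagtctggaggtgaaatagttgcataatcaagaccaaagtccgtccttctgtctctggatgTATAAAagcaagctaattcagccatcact
Aligned end to end, 245 of 251 columns were identical, with 4 mismatches and 2 gap columns. GTTAAT began at position -160 from the gene start in Cyp2a4 and -161 in Cyp2a5, and TATAAA at -28 and -29.

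In the Cyp2b subfamily, Cyp2b13 had the largest difference of all members and also the largest range over the libraries, 4.57. Cyp2b13 and Cyp2b9 are expressed more in female than in male liver. Cyp2b13 had 6.77, 9.23 and 10.67 in WT and 7.68, 6.43 and 6.10 in KO. WT replicate 1 lay among the KO tumors, and the WT values alone spanned more than the distance between the group means. The difference was -2.15 with a standard error of 0.89, and it was -1.26 without WT replicate 3 and -3.21 without WT replicate 1. Cyp2b9 had 11.02, 12.92 and 11.99 in WT and 12.33, 11.52 and 9.18 in KO, a difference of -0.96 that was -0.05 without KO replicate 3. Cyp2b10, the classical CAR target, had 5.84, 4.06 and 4.64 in WT and 3.07, 6.60 and 3.23 in KO. Its highest value was in KO replicate 2 and its lowest in KO replicate 1, and its difference of -0.55 became 0.07 without KO replicate 1.

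**Figure D2:**
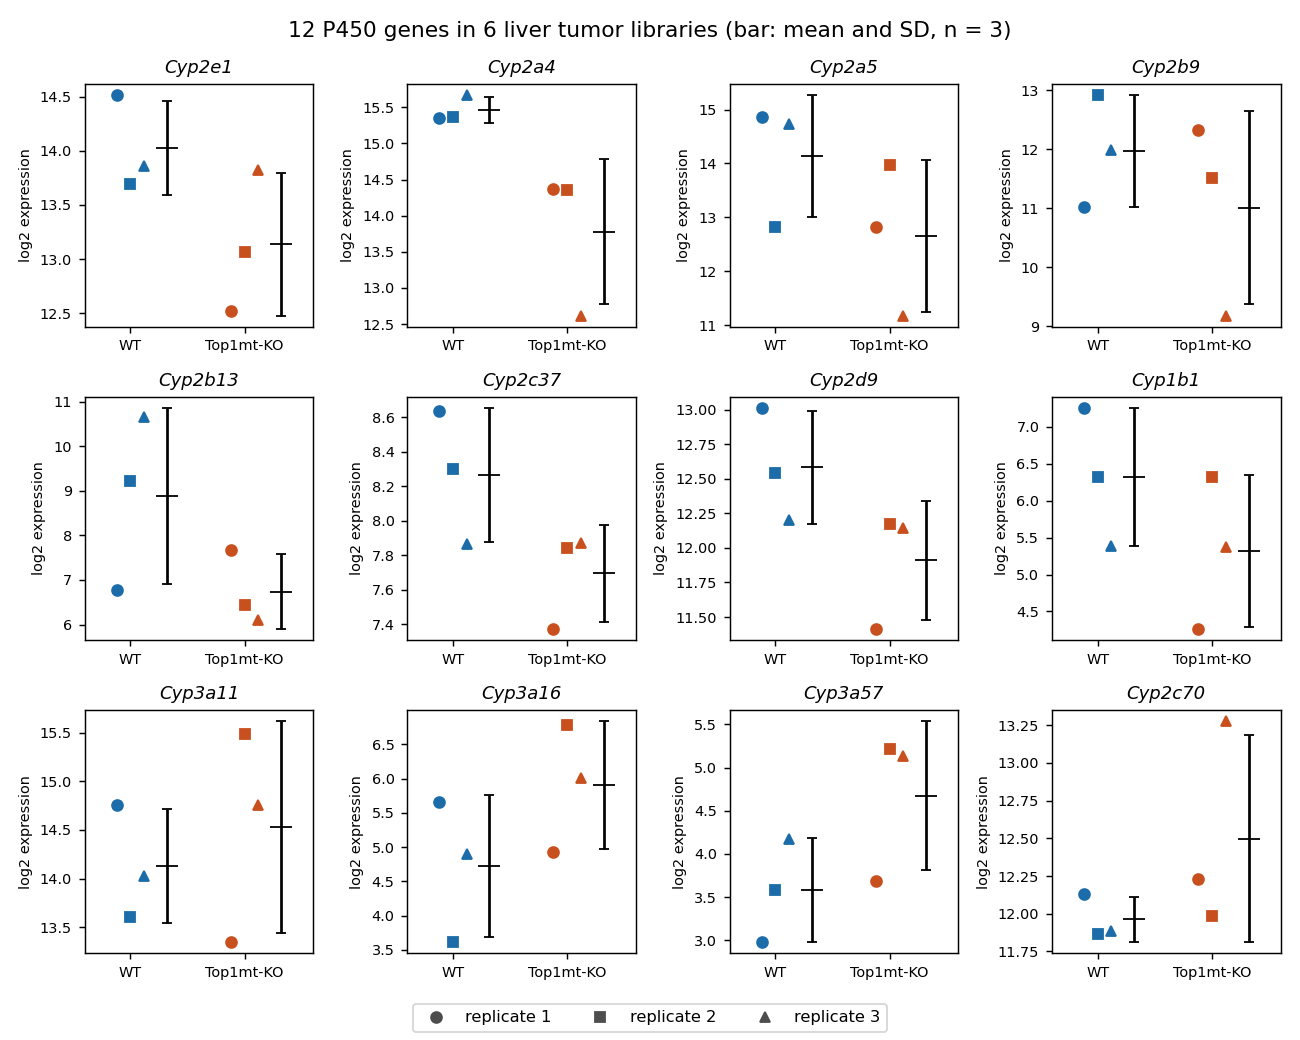
Log2 expression of 12 P450 genes in each library, 1 panel per gene, with WT in blue, Top1mt-KO in orange, marker shape for the replicate and a bar for the mean and SD (n = 3). Cyp2a4 and Cyp2d9 are the panels without overlap between groups, and in Cyp3a16 KO replicates 2 and 3 lie above the WT tumors while KO replicate 1 lies among them.

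The Cyp2d subfamily, which in mice includes many close copies, was lower in KO in 7 of its 8 members, with a median difference of -0.30. Cyp2d9, a testosterone hydroxylase expressed more in male liver, had 13.01, 12.54 and 12.20 in WT and 11.41, 12.17 and 12.14 in KO. All KO tumors were below all WT tumors, although WT replicate 3 exceeded KO replicate 2 by a margin smaller than either group's SD. Its difference was -0.67 with a standard error of 0.28 and an exact permutation p of 0.1, and it was -0.43 without KO replicate 1. Cyp2d11 also had no overlap, with 6.93, 6.41 and 6.37 in WT and 6.20, 5.92 and 6.15 in KO. Its difference was -0.48, and -0.30 without WT replicate 1. Cyp2d26, the member of the subfamily with the highest mean, differed by -0.33 and Cyp2d34 by 0.50. For Cyp2d26 it was -0.19 without the library labelled WT replicate 2 and -0.18 without KO replicate 2. The Cyp2d genes varied little among tumors, with a median within-group SD of 0.24 against 0.80 in Cyp2c and 1.43 in Cyp2b. The split of 7 lower and 1 higher held with quantile normalization, and all 8 were lower without the library labelled WT replicate 2. Scaling to the hepatocyte markers moved every difference down alike, so it could not turn the 7 lower members.

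Members of the Cyp2c subfamily, which oxidize drugs and arachidonic acid, were divided, with 7 of the 14 tested higher and 7 lower and a median difference of -0.08. Scaling to the hepatocyte markers gave 5 higher and 9 lower. Single libraries moved it as well, to 10 higher and 4 lower (median 0.08) without WT replicate 1 and to 5 higher and 9 lower without the library labelled WT replicate 2 (-0.47), WT replicate 3 (-0.01) or KO replicate 2 (-0.35), and the median was 0.11 without KO replicate 1. Cyp2c37 had 8.64, 8.30 and 7.87 in WT and 7.37, 7.84 and 7.87 in KO. WT replicate 3 was level with KO replicate 3, and the other WT tumors were higher than all KO tumors. Its difference was -0.57 with a standard error of 0.24. Its neighbors Cyp2c50 and Cyp2c54 differed by -0.47 and -0.76, but without WT replicate 1 by 0.0400 and -0.15. Cyp2c70, which hydroxylates bile acids in rodents, was the member of the subfamily with the highest mean. It had 12.13, 11.87 and 11.89 in WT and 12.23, 11.98 and 13.28 in KO, and KO replicate 3 alone was far above the rest, so that the difference of 0.53 was 0.14 without it. KO replicate 3 was also the highest library for Cyp2c40 at 8.14 and for Cyp2c69 at 5.69. Cyp2c40 and Cyp2c69 are the members with most sequence in common with other genes, with 36.5% and 30.3% of their windows found elsewhere, and how reads of shared sequence were assigned was not tested. No other member had 25% or more, and 33 of the 57 members compared had no shared window.

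The 5 largest positive differences were in Cyp3a, Cyp2j and Cyp2c. Cyp3a enzymes oxidize steroids and many drugs, and Cyp2j enzymes make epoxides of arachidonic acid. Cyp3a16, known as a fetal and female gene, had 5.66, 3.61 and 4.90 in WT and 4.93, 6.78 and 6.01 in KO, a difference of 1.18 with a standard error of 0.64 that was 0.63 without the library labelled WT replicate 2. KO replicates 2 and 3 exceeded all WT tumors and KO replicate 1 lay between WT replicates 1 and 3. Cyp3a57 showed the same arrangement of KO tumors, with 2.98, 3.58 and 4.18 in WT and 3.68, 5.21 and 5.13 in KO and a difference of 1.10. Cyp2j9 followed at 0.72, with 1.13 without KO replicate 1 and 0.36 without KO replicate 2. Cyp2j5, the Cyp2j member with the highest mean, differed by 0.56, by 1.07 without KO replicate 1 and by 0.25 without KO replicate 3. Cyp3a11 had 14.76, 13.60 and 14.02 in WT and 13.35, 15.49 and 14.75 in KO. KO replicate 1 was the lowest library and KO replicate 2 the highest, and the difference of 0.40 became 0.99 without KO replicate 1 and -0.08 without KO replicate 2. Of the 7 Cyp3a genes, 4 were higher and 3 lower in KO, and 3 were higher and 4 lower when scaled to the hepatocyte markers. The Cyp3a median was 0.07 in all libraries, 0.58 without KO replicate 1 and -0.19 without KO replicate 2, where 2 members were higher and 5 lower.

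Family 1 genes are targets of AHR, and all 3 were lower in KO on average. Cyp1a2, which oxidizes caffeine and aromatic amines, had 12.26, 9.48 and 10.80 in WT and 10.08, 10.98 and 10.05 in KO. WT replicate 1 was the highest and the library labelled WT replicate 2 the lowest library, with all KO tumors between them. Cyp1a1 had the same extremes at 6.68 and 2.45. Without WT replicate 1 the differences were 0.23 for Cyp1a2 and 0.33 for Cyp1a1, and without the library labelled WT replicate 2 they were -1.16 and -1.79. Cyp1b1, an estrogen hydroxylase found mainly outside hepatocytes, had 7.25, 6.32 and 5.39 in WT and 4.26, 6.32 and 5.37 in KO, with means of 6.32 and 5.32 and overlapping groups, and its difference was -0.48 without KO replicate 1, -0.54 without WT replicate 1 and -1.51 without KO replicate 2. Among the single-member subfamilies, Cyp2u1 had 7.82, 7.86 and 8.31 in WT and 7.71, 7.71 and 7.81 in KO. There was no overlap, but the difference was only -0.25, and -0.0963 without WT replicate 3.

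Members varied more across the tumors than genes in general. The range over the 6 libraries had a median of 1.70 for the members and 1.03 for all genes, and 23 of the 52 members spanned more than 2. WT replicate 1 held the highest value of 17 members or 32.7%, compared with 17.1% of all genes, and KO replicate 1 the lowest value of 17 members or 32.7%, also compared with 17.1%. KO replicate 3 held the lowest value of 12 members or 23.1%, close to its 22.4% of all genes. After each gene was centred on its own mean, the median of the members was 0.21 in WT replicate 1, -0.02 in the library labelled WT replicate 2 and 0.05 in WT replicate 3. It was -0.36 in KO replicate 1, -0.03 in KO replicate 2 and -0.11 in KO replicate 3, while the median of all genes lay between -0.02 and 0.01 in every library. The members together made up 1.25%, 0.841% and 1.20% of the summed linear values in WT and 0.429%, 1.03% and 0.726% in KO. KO replicate 1 was still the lowest, at 0.522%, when Gm42418 was left out of the sum.

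**Figure D3:**
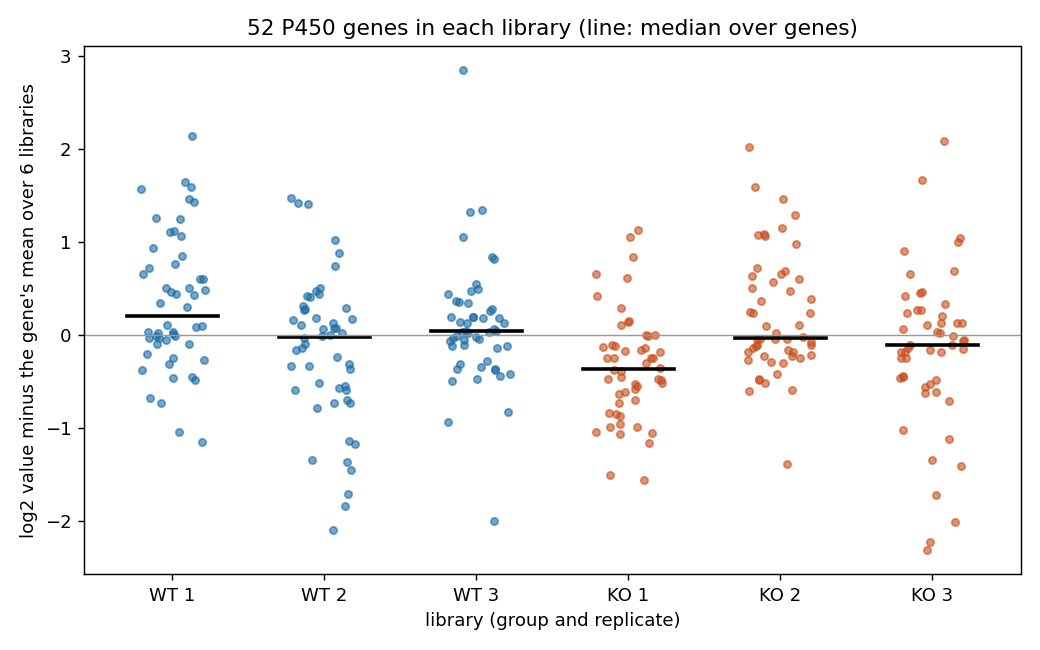
Log2 value of each of the 52 P450 genes minus its mean over the 6 libraries, by library, with a line at the median over genes. KO replicate 1 has the lowest median, -0.36, and WT replicate 1 the highest, 0.21, and the points of each library spread on both sides of 0.

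Most members sit in a few gene clusters, and the differences were not uniform along them. GENCODE M21 placed 57 of the 58 members on GRCm38, all but Cyp2c44. The cluster at chr7:25802475-27158668 holds 13 members of the Cyp2a, Cyp2b, Cyp2f, Cyp2g, Cyp2s and Cyp2t subfamilies. Of its 12 tested members 8 were lower and 4 higher, and the 5 that come first along the chromosome, Cyp2s1, Cyp2b10, Cyp2b13, Cyp2b9 and Cyp2a4, were all lower. The Cyp2c cluster at chr19:39007019-40187333 had 7 higher and 6 lower. In it Cyp2c67, Cyp2c68, Cyp2c40 and Cyp2c69 were consecutive and higher, and Cyp2c37, Cyp2c54 and Cyp2c50 consecutive and lower. Without KO replicate 3, Cyp2c40 and Cyp2c69 were lower, and Cyp2c67 and Cyp2c68 were nearly level. The Cyp2d cluster at chr15:82370527-82794294 had 1 higher and 7 lower. In the Cyp3a cluster at chr5:145345279-146113287, 4 of 6 were higher, and in the Cyp2j cluster at chr4:96027534-96664154, 3 of 5 were higher, or 2 of 5 after scaling to the hepatocyte markers. Cyp2e1 lies alone at chr7:140763739-140774987.

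Promoter sequences were then compared, because members of these clusters are copies of one another. RefSeq promoter windows, from 250 bases before to 50 after the gene start on GRCm38, were matched by symbol for 50 members, with 53 windows. The letters CAAAGTCCA, an element bound by the hepatocyte factor HNF4A, were searched on both strands and found in 8 of these windows or 15.1%, compared with 0.475% of all 32851 windows. The 8 members are shown with the element in capitals, on the strand of each gene, because the element was more frequent in these windows than in all. The regions are chr19:39812840-39812869 on the minus strand for Cyp2c40, chr19:39060880-39060909 on the plus strand for Cyp2c65, chr19:39649148-39649177 on the minus strand for Cyp2c67 and chr19:39741159-39741188 on the minus strand for Cyp2c68. Those of Cyp2c69, Cyp2c70, Cyp3a11 and Cyp3a16 are chr19:39886825-39886854, chr19:40187331-40187360, chr5:145879944-145879973 and chr5:145469803-145469832, all on the minus strand.
Cyp2c40: atcattgagaCAAAGTCCAtttggaagaga
Cyp2c65: gatgttggaaCAAAGTCCActgggaggaga
Cyp2c67: atcattgagaCAAAGTCCAtttggaagcaa
Cyp2c68: atcattgaaaCAAAGTCCAattggaagaga
Cyp2c69: atcattgagaCAAAGTCCAtttggaagaga
Cyp2c70: aggtcaaactCAAAGTCCAaactctgtgta
Cyp3a11: aagagagtacCAAAGTCCAgtgatgcaaag
Cyp3a16: aagagacgacCAAAGTCCAggtgatgcagg
Cyp2c40 and Cyp2c69 have the same 30 bases. TATAAA was found in 49.1% of the members' windows and in 13.6% of all windows, and GTTAAT in 11.3% and 7.10%. GCGTG, the core of the AHR element, was found in 18.9% of the members' windows and 32.4% of all, and TTCNNNGAA, bound by STAT5, in 3.77% and 8.30%. A match describes letters in the window only, and copies that share sequence are not independent.

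Gene lists for the known controls of P450 genes had 0 genes past the adjusted threshold by limma, and at an unadjusted limma p under 0.05 there were 2 genes lower in the female list, 1 in the male list and 0 among the targets of AHR or of CAR and PXR, where 2.56% of all genes were lower and 1.79% higher. Among P450 genes expressed more in female liver, 5 of the 8 tested had higher means in KO and Cyp2a4, Cyp2b9 and Cyp2b13 lower means, the median was 0.19, and scaling to the hepatocyte markers gave 4 and 4. Without KO replicate 3, 2 were higher and 6 lower. The female list summed to 15.43, 15.63 and 15.83 in WT tumors and 14.705, 14.56 and 12.86 in KO, mostly from Cyp2a4. Genes expressed more in male liver split into 4 and 4, or 1 higher and 7 lower without KO replicate 3, with Hsd3b5 at 6.46, 6.24 and 4.16 in WT and 6.10, 4.35 and 9.10 in KO. AHR targets were lower in 5 of 6 with a median of -0.53, which became 0.03 without WT replicate 1, -0.16 without KO replicate 3 and -1.08 without the library labelled WT replicate 2. Targets of CAR and PXR were higher in 4 of 6 with a median of 0.17, in 3 of 6 after that scaling, in 2 of 6 without the library labelled WT replicate 2 and in 0 of 6 without KO replicate 2. They were higher in 5 of 6 without WT replicate 1 (median 0.60), KO replicate 1 (0.50) or KO replicate 3 (0.30).

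Genes of electron transfer to P450 enzymes and of heme supply and breakdown were lower in 7 of 8, with a median of -0.09, but in 4 of 8 without KO replicate 3 and in 5 of 8 without KO replicate 1 or WT replicate 1. The median ranged from -0.20 without KO replicate 2 to -0.05 without KO replicate 3. Por, the reductase, had 12.15, 11.67 and 11.52 in WT and 10.90, 11.45 and 10.47 in KO. All KO tumors were below all WT tumors, which 4.33% of all genes showed. The difference was -0.84 with a standard error of 0.27 and an adjusted limma p of 0.999. Alas1, the first enzyme of heme synthesis, had 12.55, 11.51 and 12.13 in WT and 10.86, 12.15 and 10.39 in KO, a difference of -0.93 with overlapping groups. This difference was smaller in size without KO replicate 3 and larger without KO replicate 2. Hmox1, which degrades heme, was the gene of this list that was higher, by 0.16. Among 12 regulators 9 were lower, with a median of -0.12, and 6 were lower without KO replicate 1. Cebpb, a liver transcription factor, had 9.37, 9.50 and 9.14 in WT and 8.72, 8.58 and 8.16 in KO. Its difference was -0.84 with a standard error of 0.18 and an adjusted limma p of 0.938. In 2 of the regulators, Cebpb and Ppara, every KO value lay below every WT value, and Ppara differed by -0.41. Nr1i2 for PXR, Nr1i3 for CAR and Ahr differed by -0.13, -0.06 and 0.26, and Hnf4a by -0.17. Nr1i2 was higher in KO without KO replicate 3, and Nr1i3 was higher in KO without WT replicate 1. Ahr was highest in WT replicate 1 and lowest in the library labelled WT replicate 2, and Hnf4a was lowest in KO replicate 3.

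Markers of other cell types were read in the same tumors, and their part in the P450 values was not tested. Of 5 bile duct and progenitor markers 3 were lower in KO with a median of -1.19, led by Krt19 at -2.68, and the median was -0.64 without WT replicate 3 and -0.79 without KO replicate 1, while 5 of 5 were lower after scaling to the hepatocyte markers. The list summed to 12.62, 12.16 and 11.58 in WT tumors and 12.03, 11.70 and 12.58 in KO, mostly from Spp1. Stellate cell and myofibroblast markers were lower in 4 of 5 with a median of -0.40, but higher in 4 of 5 with a median of 0.18 without KO replicate 1 and in 3 of 5 without WT replicate 1. They summed to 13.90, 12.69 and 12.29 in WT tumors and 11.55, 13.59 and 12.65 in KO, with Col3a1 the most abundant. Endothelium markers were higher in 5 of 5 with a median of 0.16. They were higher in 3 of 5 after scaling to the hepatocyte markers (median 0.01) or without KO replicate 3 (0.06). The medians were -0.04 for macrophage, 0.11 for B cell and -0.12 for T cell markers. The macrophage median was 0.11 without WT replicate 3 and -0.26 without KO replicate 3. The B cell median was -0.31 without KO replicate 3 and 0.37 without KO replicate 1. The T cell median was -0.29 without WT replicate 1 and -0.07 without KO replicate 2. Of the 9 hepatocyte markers, 7 had higher means in the KO group and 2 lower ones, with a median of 0.07. After quantile normalization 2 were higher and 7 lower. Leaving out KO replicate 2 (median 0.36), KO replicate 3 (0.13) or the library labelled WT replicate 2 (0.33) gave 8 higher. Leaving out WT replicate 1 (0.04), WT replicate 3 (0.07) or KO replicate 1 (0.03) gave 5 higher and 4 lower.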

How the data were processed

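Total RNA of 3 WT and 3 Top1mt-KO liver tumors was sequenced by the authors from stranded libraries. The values are log2 levels for each gene symbol as deposited by the authors, from -2.24 to 22.0, whose transform is not given in the sources used here. The study names alignment with BWA to Mm 8, while the submitters' processing notes name GRCm38, Trimmomatic 0.36, STAR 2.5.1, Subread and DESeq2, so the build of the values is uncertain and coordinates here are those of the annotation only. Counts and depth are not given, so the study's count test was not run. Another 3 unnamed columns with leftover cells were not used.

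Genotypes were compared with limma 3.58.1 (lmFit and eBayes with a trend) in R 4.3.3 on 22677 genes, with Benjamini-Hochberg adjustment over all of them and a threshold of 0.05, after testing the procedure on simulated data. Single genes were also compared by exact two-sided permutation over 20 regroupings. Lengths and positions came from GENCODE M21, promoters from RefSeq, and identities between the longest coding transcripts from blastn 2.17.0. Genes named are Cyp2e1, members without overlap between groups, the 5 largest differences each way, the highest mean of each subfamily with more than 1 member, members at an unadjusted p under 0.05, listed genes and Top1mt, and others were chosen after their values were seen. Members and lists were chosen with earlier results of these data known. Alternatives were no trend, quantile normalization, scaling to hepatocyte markers, no filter, a filter at the median, a replicate block and each library left out.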

Additional observations from a re-analysis of the deposited data

How the results depend on the processing

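No member passed the adjusted threshold of limma under any of the 12 alternatives, and their smallest adjusted p was 0.0914, for Cyp2a4 and Cyp2b13 with scaling to hepatocyte markers. Over all genes, 0 passed, and 6 with scaling to hepatocyte markers, 4 with no filter on low values and 0 to 1 when a library was left out. Members at an unadjusted p under 0.05 numbered 5 (4.34% of all genes reached it), and 1 without a trend (4.62%), 3 with quantile normalization (4.26%), 6 with scaling to hepatocyte markers (3.42%), 2 with no filter (3.32%), 5 with a filter at the median (3.90%), 1 with the replicate block (4.02%) and 3 to 8 when a library was left out (3.79% to 5.97%). Cyp2a4 was among them in every fit. The labels do not say whether libraries with the same replicate number were paired. Deviations of same-numbered libraries correlated at -0.12, -0.08 and 0.05, which cannot settle it with 3 libraries per group. The block changed no adjusted call. Scaling to hepatocyte markers moved the median of all genes by -0.15, gave 38 members lower and 14 higher, and turned Cyp2c55 to -0.0771 and Cyp3a44 to -0.0789. The causes were not tested.

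Cyp2e1 and the members' median kept their direction throughout. Of 27 other genes followed, those the naming rule gave among the members and Top1mt, 17 kept theirs under every alternative. With a library left out, 10 of these 27 reversed: Cyp1a1 ranged from -1.79 to 0.33, Cyp1a2 from -1.16 to 0.23, Cyp2b10 from -1.70 to 0.0714, Cyp2c29 from -0.17 to 0.76, Cyp2c40 from -0.15 to 1.00003, Cyp2c50 from -0.88 to 0.0400, Cyp2c55 from -0.71 to 0.62, Cyp2c69 from -0.65 to 0.92, Cyp3a11 from -0.0779 to 0.993 and Cyp3a44 from -0.23 to 0.58. Unknown depth leaves the precision of members near the bottom of the table unknown.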

Other observations

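Several genes lie close to the naming rule and outside it. Cyp3a41a, a female liver gene of the Cyp3a subfamily, had 1.93, 0.70 and 1.81 in WT and 1.87, 2.27 and 2.23 in KO, and Cyp3a41b was listed below the filter. Cyp2ab1 had 2.37, 0.90 and 2.62 in WT and 2.05, 2.44 and 1.42 in KO. It differed by 0.01 between the groups and was lower in KO without the library labelled WT replicate 2. The pseudogene Cyp2d37-ps was listed at 10.77, 11.15 and 10.39 in WT and 10.97, 10.36 and 10.12 in KO, and Cyp2d41-ps differed by -0.82 with overlapping groups.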
